A study of Mus musculus with 75 samples.

Results

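The genes described here are 10 genes of the hair cell ribbon synapse and of vesicle release: Otof, Slc17a8, Ctbp2, Bsn, Pclo, Rims2, Erc2, Cacna1d, Cacnb2 and Cabp2. They were chosen by name, all 10 were rows of the raw count table, and they stand among 55291 genes in all. Otof and Slc17a8 are known as genes of inner hair cells (IHCs). Expression was measured by full-length RNA-seq of 75 single cells picked by hand from mouse cochleae of the C57BL/6 strain, in 5 groups. The 17 WT_P30 OHCs were Tdtomato+ outer hair cells (OHCs) of Slc26a5 CreER/+; Ai9/+ mice, given tamoxifen at P20 and P21 and taken at P30. The 16 WT_P60 SCs were Tdtomato+ supporting cells (SCs) of Fgfr3-iCreER+; Ai9/+ mice, given tamoxifen at P30 and P31 and taken at P60. Both of these groups are labelled wild type, although they carried Cre and reporter alleles. The remaining 42 cells, also Tdtomato+, came from Fgfr3-Atoh1-Ikzf2-DTR mice. Those mice carried CAG-LSL-Atoh1+ together with Fgfr3-iCreER+, and Slc26a5 DTR/+ together with Rosa26 CAG-LSL-Ikzf2/+. In them the transcription factors Atoh1 and Ikzf2 were switched on in Fgfr3-expressing SCs by tamoxifen at P30 and P31. Diphtheria toxin at 20 ng/g on P36 removed the endogenous OHCs, which carried its receptor, and cells were taken at P60. These 42 cells were classed afterwards by 2 transcripts, Myo7a and Slc26a5 (which encodes Prestin): 11 OHC-like cells had both, 16 nascent HCs had Myo7a only and 15 SCs failing to become HCs (failing SCs in the following) had neither.

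A ribbon synapse is the release site through which a hair cell signals sound to the auditory nerve. An electron-dense ribbon, built mainly of the RIBEYE product of Ctbp2, tethers glutamate-filled vesicles next to clustered L-type calcium channels. The vesicular transporter encoded by Slc17a8 (VGLUT3) fills the vesicles, scaffold proteins of the active zone hold vesicles and channels together, and the calcium sensor otoferlin, encoded by Otof, couples calcium entry to fusion. IHCs carry nearly all of the afferent traffic, whereas OHCs have fewer and smaller ribbons and receive mainly efferent input.

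Each sample was 1 cell and the labels name no animal, so each group counts as 1 sample and no test between groups was possible. SDs and ranges are therefore the spread between cells. Levels are given as CPM (counts per 1000000 of the cell's scaled total), and a difference as log2((mean CPM of the first group + 1)/(mean CPM of the second + 1)). A gene was counted as past the fold when this value was over 2 in either direction, which is a 4-fold difference, among genes with a mean of at least 1 CPM in either group. Members are given out of all 10, of which 6 to 10 passed this filter, depending on the comparison. Shares of all genes are over those that passed it. A gene was called detected in a cell at 1 CPM or more of the cell's unscaled total. The intervals are exact binomial (Clopper-Pearson) 95% intervals for shares of cells and cover counting error only. A fold against a group with no read in any cell is a lower bound, computed against 3 reads in each of its cells.

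The cells held between 4264780 and 22934062 counts on genes. The median was 5967735 in the WT_P30 OHCs, 7032279 in the WT_P60 SCs, 9209094 in the OHC-like cells, 11377685 in the nascent HCs and 6985617 in the SCs failing to become HCs. A median of 4777 genes was detected in a WT_P30 OHC against 8488 in an OHC-like cell. OHC-like cell 4 stood apart with 3348 genes, the fewest of all cells, and results that rest on it are given with and without it. Library numbers in the labels run in separate series for the WT_P30 OHCs and the WT_P60 SCs, so group and series cannot be told apart there. Ages also differed, P30 against P60. Of the defining markers, Myo7a was detected in 17 of 17 WT_P30 OHCs and in none of the 16 WT_P60 SCs, and Slc26a5 had a mean of 1668 CPM in WT_P30 OHCs against 67.0 in OHC-like cells. Myo7a and Slc26a5 themselves classed the 42 cells, so they are no finding among them. At 1 CPM the classes were not strict, as Myo7a was detected in 3 of 15 failing SCs, at up to 28.0 CPM, and Slc26a5 in 3 of 16 nascent HCs, at up to 14.7.

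In mm10 (GRCm38, GENCODE annotation vM21) the members lie on 8 chromosomes. Otof is at chr5:30367062-30461932 (minus strand), Slc17a8 at chr10:89574020-89621253 (minus), Ctbp2 at chr7:132987563-133124354 (minus), Bsn at chr9:108096022-108190384 (minus) and Pclo at chr5:14514918-14863459 (plus). Rims2 is at chr15:39198261-39684372 (plus), Erc2 at chr14:27622428-28478537 (plus), Cacna1d at chr14:30039939-30491455 (minus), Cacnb2 at chr2:14603088-14987908 (plus) and Cabp2 at chr19:4081578-4087340 (plus). The counts are per gene. They cannot separate RIBEYE from the CtBP2 co-repressor, which share the gene Ctbp2, or the short and long products of Pclo. The summed exon length ran from 1350 bases for Cabp2 to 22457 for Pclo. Cacna1d shared 589 of its exon bases with Chdh on the opposite strand and Ctbp2 shared 314 with Fgfr2 on the same strand. Whether the counting used strand is not given in the sources used here. Otof, Slc17a8, Rims2 and Cabp2 shared no exon base with another gene.

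Promoter windows, from 250 bases before to 50 after a transcription start, were found in the RefSeq table (build GRCm38.p6) for 8 of the 10 members, 13 windows in all. Of these, 7 held the E-box core CAGCTG or CAGATG, searched on both strands (CAGATG reads CATCTG on the other). E-boxes are the motif class bound by basic helix-loop-helix factors such as Atoh1. Either core was held by 30.6% of all 32851 windows, with CAGCTG in 16.3% and CAGATG in 17.2%. A match is a description of the letters and not a binding site. The windows of 4 members are shown, because these genes stand for the 2 opposite patterns described next. Cacna1d and Cabp2 stand for genes high in wild-type OHCs. Bsn and Pclo stand for genes with higher means in OHC-like cells and nascent HCs. For Cacna1d and Cabp2 the table has 2 windows each, and the one that holds a core is shown. The other window of each held none. Of the other genes high in wild-type OHCs, neither the 2 windows of Ctbp2 nor the window of Erc2 held a core. They are chr14:30353437-30353736 (minus strand) for Cacna1d, chr19:4082238-4082537 (plus) for Cabp2, chr9:108190334-108190633 (minus) for Bsn and chr5:14514668-14514967 (plus) for Pclo, written 5′ to 3′ with the cores in capitals.
Cacna1d: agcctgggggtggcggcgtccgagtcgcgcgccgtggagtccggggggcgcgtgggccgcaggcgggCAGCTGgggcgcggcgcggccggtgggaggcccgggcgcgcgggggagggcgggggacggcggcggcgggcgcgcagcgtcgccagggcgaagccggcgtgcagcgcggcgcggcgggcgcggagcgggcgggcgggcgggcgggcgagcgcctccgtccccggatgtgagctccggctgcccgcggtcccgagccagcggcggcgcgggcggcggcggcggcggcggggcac
Cabp2: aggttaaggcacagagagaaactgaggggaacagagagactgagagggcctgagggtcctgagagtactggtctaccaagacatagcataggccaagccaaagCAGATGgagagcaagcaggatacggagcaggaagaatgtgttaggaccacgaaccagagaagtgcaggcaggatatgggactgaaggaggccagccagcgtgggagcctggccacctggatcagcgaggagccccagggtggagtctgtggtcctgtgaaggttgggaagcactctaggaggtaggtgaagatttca
Bsn: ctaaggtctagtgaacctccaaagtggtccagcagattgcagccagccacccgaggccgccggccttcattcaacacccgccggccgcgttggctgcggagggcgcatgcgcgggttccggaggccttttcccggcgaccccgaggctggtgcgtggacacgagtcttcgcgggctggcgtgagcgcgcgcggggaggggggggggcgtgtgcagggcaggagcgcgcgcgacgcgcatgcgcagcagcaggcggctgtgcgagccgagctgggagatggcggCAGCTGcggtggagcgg
Pclo: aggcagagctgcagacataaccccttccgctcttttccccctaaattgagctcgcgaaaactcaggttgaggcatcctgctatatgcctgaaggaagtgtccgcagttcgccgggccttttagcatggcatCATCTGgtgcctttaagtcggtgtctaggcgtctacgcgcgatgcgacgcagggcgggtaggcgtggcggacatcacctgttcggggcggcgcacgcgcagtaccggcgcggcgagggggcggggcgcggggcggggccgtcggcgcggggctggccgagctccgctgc

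The members split into opposite patterns over the 5 groups. Otof, Cacna1d, Cabp2, Ctbp2 and Erc2 had their highest mean level in WT_P30 OHCs and lay at least 4-fold lower in OHC-like cells. Bsn, Pclo and Rims2, scaffold genes of the active zone, had higher means in OHC-like cells than in WT_P30 OHCs, by log2 ratios of 5.80, 3.27 and 6.38. Cacnb2 had similar means in both, and Slc17a8 was near 0 in most cells of every group. The set of 5 and the set of 3 were formed after the values were seen.

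**Figure D1:**
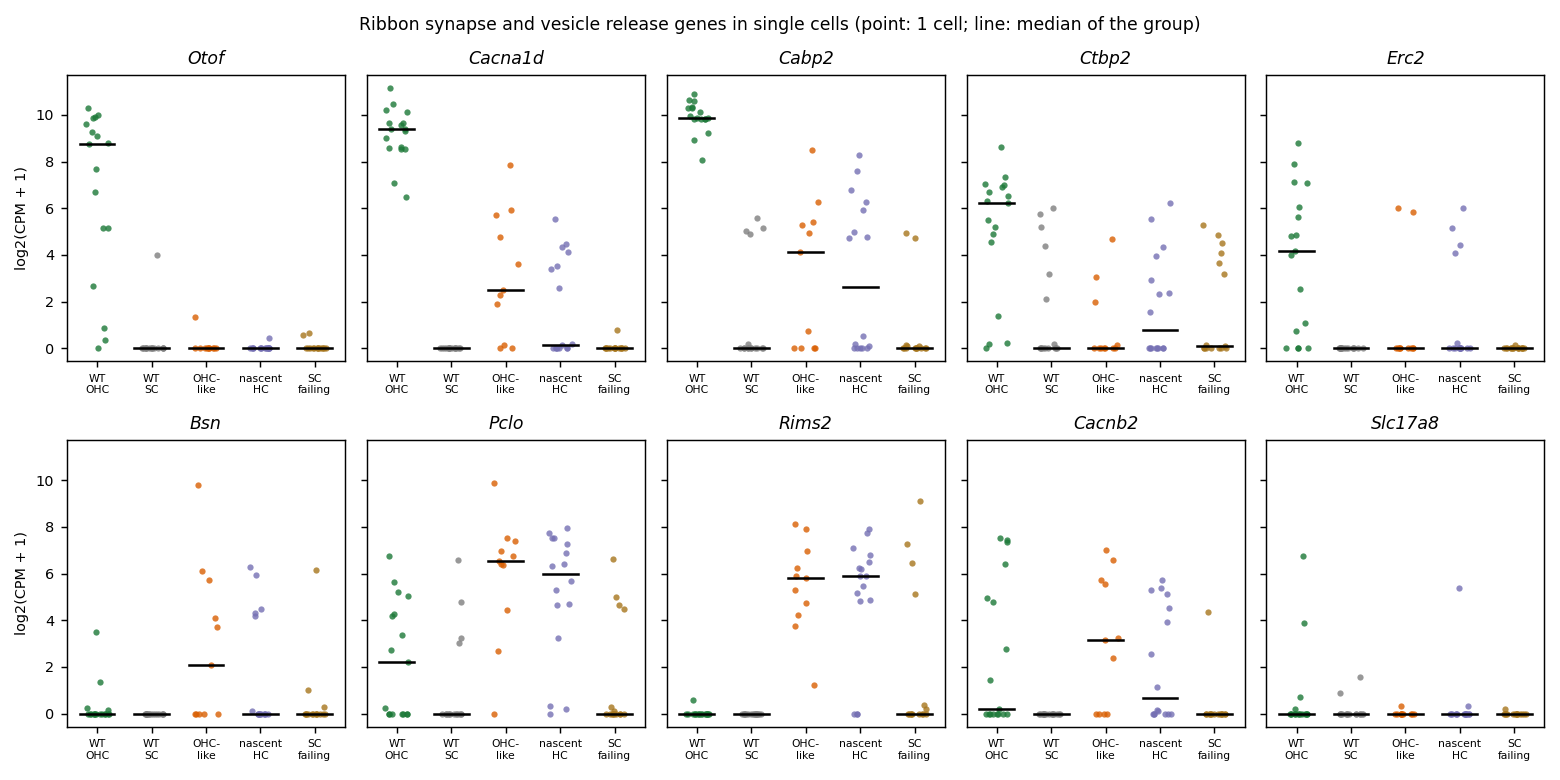
Level of each of the 10 members in each of the 75 cells, as log2(CPM + 1), by group, with a line at the median of the group. Cacna1d and Cabp2 were detected in 17 of 17 WT_P30 OHCs, whereas Rims2 was detected in 0 of 17 and in 11 of 11 OHC-like cells.

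The first comparison asked which members mark the synapse of a wild-type OHC against the SCs from which the new cells derive. In WT_P30 OHCs 7 of the 10 members were past the fold as higher than in WT_P60 SCs and none as lower. Of all 15467 genes in that comparison 15.0% were higher and 20.8% lower. The median log2 ratio was 4.05 over the members and -0.26 over all genes. The 7 were Cacna1d, Otof, Cabp2, Erc2, Cacnb2, Slc17a8 and Ctbp2.

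Cacna1d encodes CaV1.3, the pore subunit of the L-type channel that triggers release in hair cells. Its level in the 17 WT_P30 OHCs ran from 89.7 to 2313 CPM with a median of 665, and no WT_P60 SC held a single read. Every OHC was thus above every SC, and the mean of 744 ± 540 CPM (SD, n = 17) was at least 1773-fold higher than in SCs. Cabp2 encodes a calcium-binding protein that keeps this channel from inactivating. It ran from 266 to 1894 CPM in OHCs (median 938, mean 1048 ± 408), and in SCs the median was 0 and the highest cell had 47.0. These were the 2 members whose cells did not overlap between both groups, a separation seen for 2.24% of all genes in the comparison. Cacnb2 encodes an auxiliary beta subunit of the channel. It was detected in 8 of 17 OHCs (47.1%, interval 23.0 to 72.2), with a median of 0.128 and a highest value of 182 CPM, and no SC held a read.

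Otof was detected in 14 of 17 WT_P30 OHCs (82.4%, interval 56.6 to 96.2). Its level spread widely, from 0 to 1270 CPM with a median of 427, and the mean was 435 ± 432. A single WT_P60 SC of 16 held it, at 15.1 CPM, and the log2 ratio between the groups was 7.81. Slc17a8 was detected in 2 of 17 OHCs, at 13.6 CPM in OHC 14 and 106 CPM in OHC 17. Its log2 ratio against SCs of 2.78 fell to 0.69 without OHC 17. That cell also had the highest Otof level, yet its Slc26a5 was at 1792 CPM and its Ocm, an OHC calcium buffer, at 38008 CPM. Among the other IHC markers Slc7a14 held no read in any of the 17 OHCs, Fgf8 reached at most 0.988 CPM and Tbx2 reached 1 CPM in 1 cell, at 22.1. Of these IHC genes, Otof was thus the 1 found in most OHCs.

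Ctbp2 was detected in 14 of 17 WT_P30 OHCs and 6 of 16 WT_P60 SCs, with medians of 74.7 and 0 CPM, highest values of 398 and 63.2 and a log2 ratio of 2.77. The groups overlapped, as 8 of the 17 OHCs lay within the range of the SCs. Erc2, also named CAST, is a scaffold that links ribbon and active zone proteins. It was detected in 12 of 17 OHCs with a median of 17.1 and a highest value of 445 CPM, and no SC held a read, which placed the OHC mean at least 163-fold higher. Of the other scaffold genes, Pclo had a median of 3.57 CPM in OHCs and 0 in SCs with a log2 ratio of 0.85, which became 2.18 without SC 1. Bsn was detected in 2 OHCs, at most at 10.3 CPM, and Rims2 was at or below 0.496 CPM in all 17. Both were below the 1 CPM mean in both groups and outside the comparison.

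The next comparison set the OHC-like cells against WT_P30 OHCs and addressed how close the new cells came to the synaptic program of OHCs. Of the 10 members 6 were past the fold as lower in OHC-like cells and 3 as higher. Over all 15338 genes 11.2% were lower and 22.0% higher. The median log2 ratio was -2.76 over the members against 0.55 over all genes.

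The 6 lower members were Cabp2, Cacna1d, Otof, Ctbp2, Erc2 and Slc17a8. Cabp2 had a median of 16.7 CPM in OHC-like cells, and its highest value, 365 in cell 11, lay below 16 of the 17 OHCs. Its log2 ratio was -4.32. Cacna1d was detected in 8 of 11 OHC-like cells (72.7%, interval 39.0 to 94.0), with a median of 4.69 CPM and a highest value of 229, again in cell 11. Its log2 ratio was -4.36, and 15 of 17 OHCs lay above every OHC-like cell. Otof reached 1 CPM in 1 of 11 OHC-like cells, at 1.55, and 10 held no read, for a log2 ratio of -8.58. The OHC-like mean behind that ratio came from 19 reads in cell 7. Ctbp2 was detected in 3 of 11 OHC-like cells with a highest value of 24.8 CPM and a log2 ratio of -4.34. Erc2 was found in 2 OHC-like cells, at 57.0 and 63.7 CPM, and its log2 ratio of -2.54 became -1.95 without OHC 12. Slc17a8 came to 3 reads in 1 of 11 OHC-like cells. Its log2 ratio of -2.98 rested on OHC 17 and became -0.89 without it. Cacnb2 had means of 31.2 ± 44.7 CPM (n = 11) and 39.1 ± 66.9 (n = 17), a log2 ratio of -0.32, and the cells overlapped.

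Rims2, Pclo and Bsn ran the other way, unlike the scaffold gene Erc2. Rims2 encodes RIM2, which positions calcium channels and primes vesicles. It was detected in 11 of 11 OHC-like cells (100%, interval 71.5 to 100), from 1.33 to 282 CPM with a median of 55.7. In the 17 OHCs it came to 3 reads in all, in 1 cell. The ratio of the means was 2903, with a counting interval of 993 to 14075 that covers those 3 reads only. Rims2 was the 1 member whose cells did not overlap between these groups, which held for 0.763% of all genes in the comparison. Pclo encodes piccolo, a very large scaffold whose short form is known at ribbons. It was detected in 10 of 11 OHC-like cells, with a median of 93.3 CPM and a highest value of 951 in cell 4, against a median of 3.57 and a highest value of 106 in OHCs. Bsn encodes bassoon, which anchors the ribbon to the membrane. It was detected in 6 of 11 OHC-like cells (54.5%, interval 23.4 to 83.3), at 3.24, 12.1, 16.1, 52.0, 68.7 and 889 CPM.

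OHC-like cell 4 alone gave most of the mean of Bsn and much of that of Pclo. Without it the mean of Bsn fell from 94.6 to 15.2 CPM and that of Pclo from 165 to 86.6, and the log2 ratios against WT_P30 OHCs became 3.24 and 2.34. The ratio of Rims2 became 6.00. These 3 genes are long, and on a scale per exon length (TPM, the same share for counts divided by exon length) cell 4 was less far from the others. Its Bsn was 28.0 TPM against 8.61 in the next highest cell, its Pclo 21.3 against 15.7, and its Rims2 13.7, below the 61.9 of cell 11. With a pseudocount of 1 TPM, Pclo was not past the fold against WT_P30 OHCs, at means of 9.17 and 1.66 TPM. Bsn was past it at 4.39 against 0.0955 TPM, but not without cell 4, at 2.02. Rims2 stayed past it without cell 4, at 14.7 against 0.00726 TPM.

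**Figure D2:**
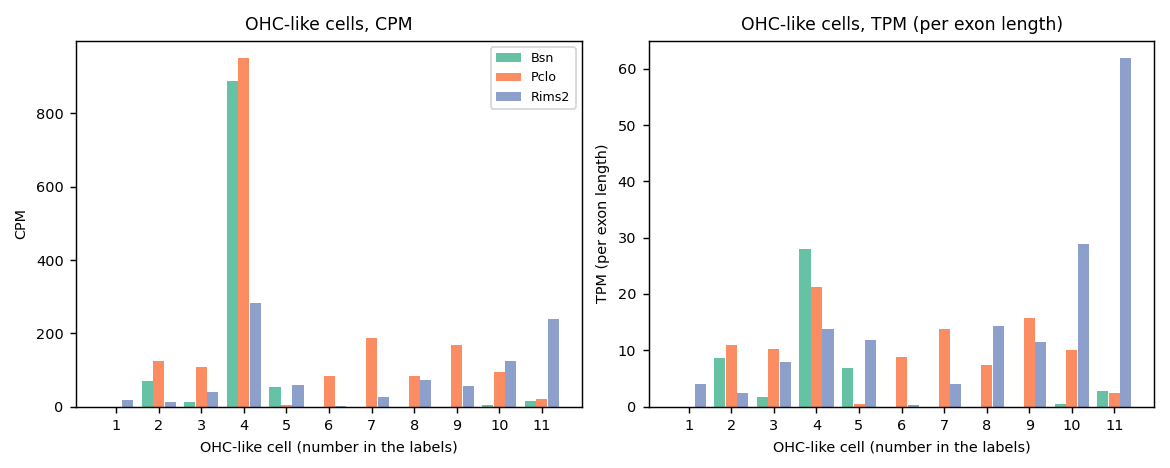
Bars give Bsn, Pclo and Rims2 in each of the 11 OHC-like cells, in CPM on the left and in TPM, per exon length, on the right. Cell 4 reached 889 CPM of Bsn and 951 of Pclo, but 28.0 and 21.3 TPM, while the highest Rims2 in TPM was in cell 11.

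Levels of different genes can be set side by side only per length. In WT_P30 OHCs the mean TPM ran from 1779 for Cabp2 over 132 for Cacna1d, 125 for Otof, 32.6 for Ctbp2, 16.4 for Erc2 and 6.50 for Cacnb2 down to 3.05 for Slc17a8, 1.66 for Pclo, 0.0955 for Bsn and 0.00726 for Rims2. In OHC-like cells the order of mean TPM was Cabp2 at 87.1, Rims2 at 14.6, Pclo at 9.17, Cacna1d at 6.08, Cacnb2 at 4.79, Bsn at 4.39, Erc2 at 2.57, Ctbp2 at 1.29, Otof at 0.0294 and Slc17a8 at 0.00777. Rims2 thus moved from the last place to the second and Otof from the third to the ninth. Every neighbouring pair in the OHC-like order overlapped in its ranges over cells, as did every pair below Cabp2 in the OHC order. Cabp2 in OHCs ran from 509 to 2929 TPM, above Cacna1d at 18.4 to 359.

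**Figure D3:**
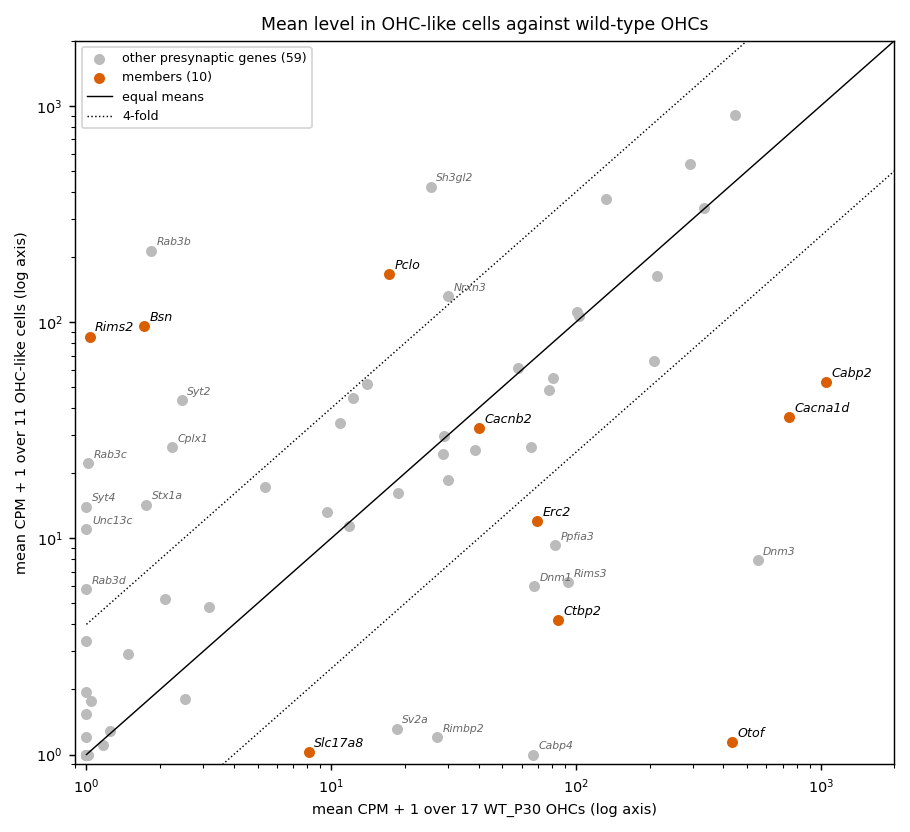
Mean CPM + 1 in 17 WT_P30 OHCs (x, log axis) and in 11 OHC-like cells (y, log axis) for the 10 members and 59 other presynaptic genes. Solid line, equal means, and dotted lines, 4-fold. Cabp2, Cacna1d, Otof, Ctbp2, Erc2 and Slc17a8 lie below the lower dotted line, and Bsn, Pclo and Rims2 above the upper one.

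Against WT_P60 SCs, the cell type they came from, OHC-like cells had 7 of 10 members past the fold as higher and none as lower. Over all 15988 genes 17.0% were higher and 12.2% lower. The same number, 7 and none, was reached by nascent HCs, against 15.9% higher and 10.7% lower of 16013 genes. These comparisons share the SCs with each other and with the first one, so only their own values are given. No WT_P60 SC held a read of Bsn, Rims2, Erc2, Cacna1d or Cacnb2, and 3 reads in each SC would average 0.420 CPM.

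The lower bound of the fold for Rims2 was 202 in OHC-like cells. For nascent HCs the bound was 177, and 13 of these 16 cells held Rims2, at a median of 59.3 and up to 243 CPM. For Bsn the mean of OHC-like cells was higher by at least 225-fold, with a log2 ratio of 6.58 that became 4.02 without cell 4, and that of nascent HCs by at least 28.8-fold. Pclo had log2 ratios of 4.12 and 3.21. Of the nascent HCs 13 of 16 held Pclo, with a median of 64.7 and a highest value of 245 CPM, as did 4 of 16 SCs, where SC 1 had 94.7. The channel genes were also above the SCs. The bounds for OHC-like cells and nascent HCs were at least 84.2-fold and 18.9-fold higher for Cacna1d, and at least 74.2-fold and 30.9-fold higher for Cacnb2. Erc2, found in 2 OHC-like cells and 4 nascent HCs, was higher by at least 26.1-fold and 20.0-fold. Cabp2 had a log2 ratio of 2.41 in each, which became 1.10 without OHC-like cell 11 and 1.85 without nascent HC 2.

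The ribbon gene and both IHC genes were the members not past the fold in these cells. Ctbp2 had log2 ratios of -1.57 in OHC-like cells and -0.09 in nascent HCs against SCs. The first became -2.62 without OHC-like cell 11. Otof reached 1 CPM in no nascent HC, with an interval from 0 to 20.6%, and its highest value there was 0.335 CPM. Slc17a8 reached 1 CPM in 1 nascent HC, cell 2, at 41.2 CPM. Its log2 ratio against SCs was 1.61 with that cell and -0.21 without it. In the same cell Cabp2 stood at 308 CPM, its highest value among nascent HCs. The IHC marker Slc7a14 was detected in 1 nascent HC, at 28.9 CPM. The summed level of the 5 IHC markers (Slc17a8, Otof, Slc7a14, Fgf8 and Tbx2) peaked at 70.0 CPM among nascent HCs. Tbx2 reached at most 6.71 CPM there, so nascent HC 2 held both Slc17a8 and Slc7a14.

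The OHC-like cells and the nascent HCs were told apart by Slc26a5, and few members differed by the fold. Of the 10, 2 were past the fold as higher in OHC-like cells, Bsn at 2.87 and Cacna1d at 2.02, and none as lower. Of all 15299 genes 4.90% were higher and 5.67% lower. Neither stayed past the fold without OHC-like cell 4, where Bsn stood at 0.31 and Cacna1d at 1.96. Cacna1d stood at 0.93 without OHC-like cell 11, and Ctbp2 was then past the fold as lower, at -2.53 against -1.48 with all cells. Cacna1d also left the fold without OHC-like cell 7 and without each of 10 of the 16 nascent HCs in turn. For Cacna1d 3 of 11 OHC-like cells lay above the highest nascent HC, which had 45.0 CPM. The median of Cacna1d was 4.69 CPM in OHC-like cells and 0.108 in nascent HCs. Rims2 and Cabp2 had log2 ratios of 0.19 and -0.00.

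The SCs failing to become HCs came from mice of the same genotype and were classed by the absence of Myo7a and Slc26a5. Against WT_P60 SCs 2 of the 10 members were past the fold as higher, which is 33.3% of the 6 in the comparison, and none as lower. Of 16094 genes 15.4% were higher and 8.84% lower. The 2 members were Rims2 at 5.81 and Bsn at 2.52. Rims2 was detected in 4 of 15 of these cells, at 33.8, 86.6, 154 and 555 CPM, and was at least 132-fold higher than in WT_P60 SCs. Without failing SC 2, the highest, its log2 ratio was 4.37. Bsn rested on 1 cell, failing SC 7 at 69.5 CPM, without which its log2 ratio was 0.12. That cell also held Rims2 at 86.6 CPM, Pclo at 21.6 and the only Cacnb2 of the group, at 19.5. Cacna1d and Erc2 held 3 reads and 1 read in the whole group.

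OHC-like cells had 6 of 10 members past the fold as higher than in failing SCs and none as lower, with 11.1% of 16100 genes higher and 12.5% lower. Nascent HCs had 5 and none, with 9.08% of 15998 genes higher and 10.3% lower. Cacna1d, Erc2, Cacnb2, Cabp2 and Pclo were past the fold in both. Bsn was so in OHC-like cells, at 4.06, but fell to 1.50 without cell 4. Rims2 was not past the fold in either, at 0.61 and 0.42. Without failing SC 2 these values were 2.06 and 1.87. Series A to E are blocks of neighbouring library numbers, and within A some numbers are missing. From A to D each series starts at the number that follows the last of the series before it. Whether these blocks were separate batches is not given in the sources used here. By library-number series, Cacna1d in OHC-like cells was at 3.37 in series A (1 cell against 4) and 6.85 in series E (2 against 1), beside 5.12 over all series. In nascent HCs it was at 3.91 in series A (1 against 4), 0.00 in series C (1 against 10) and 2.56 in series E (4 against 1), beside 3.10. For Pclo the values in OHC-like cells were -0.08 in series A and 0.88 in series E beside 3.71. In nascent HCs they were 4.63, 2.39 and -0.69 in series A, C and E beside 2.81. In Cabp2 they were 0.00 and 7.52 in OHC-like cells beside 3.50, and 0.00, 2.09 and 6.15 in nascent HCs beside 3.50. In series B and D, with 8 OHC-like cells and 10 nascent HCs, there was no failing SC, so group and series cannot be told apart there.

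Detection is given cell by cell for sets formed after the values were seen, as a description. Bsn was detected in 6 OHC-like cells, 5 nascent HCs and 1 failing SC, and in each of these cells both Pclo and Rims2 were detected too. On their own, Rims2 was detected in 11 of 11 OHC-like cells and Pclo in 10. All 5 of Otof, Ctbp2, Erc2, Cacna1d and Cabp2 were detected together in 9 of 17 WT_P30 OHCs, and the other OHCs had 3 or 4. Cacna1d and Cabp2 were each in 17 of 17 OHCs. In the 42 cells of Fgfr3-Atoh1-Ikzf2-DTR mice the most was 3. The median number of members detected was 6 of 10 in both WT_P30 OHCs and OHC-like cells, and 5 and 6 once every cell was thinned to 4264780 counts. Unthinned, OHCs had a median of 5 of the first set and 1 of the set of Bsn, Pclo and Rims2, and OHC-like cells 2 and 3. Thinned, the medians were 4 and 1 in OHCs and 2 and 3 in OHC-like cells.

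**Figure D4:**
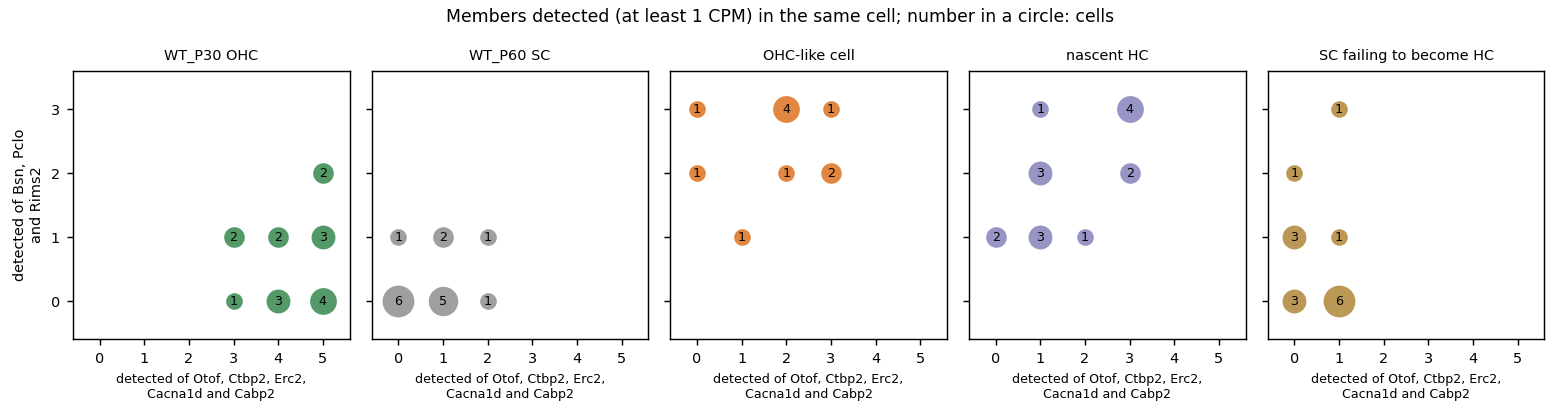
Number of members detected in the same cell, for Otof, Ctbp2, Erc2, Cacna1d and Cabp2 (x, of 5) and for Bsn, Pclo and Rims2 (y, of 3), with the number of cells in each circle. WT_P30 OHCs lie at 3 to 5 on x and 0 to 2 on y, and OHC-like cells at 0 to 3 on x and 1 to 3 on y.

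Over the 75 cells Pearson's r of log2(CPM + 1) was 0.83 between Cacna1d and Cabp2, 0.79 between Otof and Cacna1d and 0.66 between Otof and Cabp2. It was 0.55 between Bsn and Rims2, 0.49 between Pclo and Rims2 and 0.48 between Bsn and Pclo, and -0.35 between Otof and Rims2. These values describe cells that share group, library series and depth, and the r with log10 of the total was 0.49 for Rims2 and -0.36 for Otof. Of all genes with a mean of at least 10 CPM, the 3 most like Cacna1d were Gm6558 (0.91), Defb25 (0.91) and Grxcr2 (0.90), a gene of the hair bundle. Otof was most like Chst2 (0.86), AI593442 (0.86) and Ptprq (0.85), and Cabp2 most like Strip2 (0.85), Rbm24 (0.84) and Chrna10 (0.84), a subunit of the efferent acetylcholine receptor of hair cells. Rims2 was most like Coro2a (0.81), Epha5 (0.80) and Eya2 (0.79), and Pclo most like Nrsn1 (0.78), Disp2 (0.75) and Ifitm2 (0.71). Bsn was most like the synaptotagmin gene Syt2 (0.74), then Slc5a5 (0.69) and Col18a1 (0.66). The likeness was weaker for the others. Ctbp2 was nearest to Ap3b2 (0.62), AI593442 (0.61) and Elmod1 (0.61), Erc2 to Cables1 (0.62), Wscd2 (0.61) and Apba1 (0.60), Cacnb2 to Aldh18a1 (0.60) and St8sia3 (0.56), and Slc17a8 to Tunar (0.45), Plk1 (0.45) and Sap30 (0.44).

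The paralogs of the members are given by their mean levels. Among the RIM genes Rims1 was at or below a mean of 0.545 CPM in every group. Rims3 had a mean of 91.9 CPM in WT_P30 OHCs (15 of 17 cells) against 5.25 in OHC-like cells and 3.27 in nascent HCs. Cabp4, which modulates the same channels, had a mean of 65.9 CPM in WT_P30 OHCs (12 of 17 cells) and no read in any OHC-like cell, while Cabp1 and Cabp5 were at or near 0 in all groups. The transporter genes Slc17a6 and Slc17a7 held no read in WT_P30 OHCs, and the mean of 24.8 CPM of Slc17a7 in nascent HCs came from 1 cell at 385 CPM and was 0.745 without it. Ctbp1 and Erc1 were found in every group, Ctbp1 at means from 67.0 to 148 CPM and Erc1 at 15.7 to 34.0. The other L-type pore genes were low, Cacna1c at no more than 4.25 CPM and Cacna1f at no more than 0.770. The beta subunit gene Cacnb3 had a mean of 16.3 CPM in OHC-like cells, of which 1 stood at 123, and 5.65 without that cell, against 4.35 in WT_P30 OHCs.

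Of the 59 other presynaptic genes in the list, 39 entered the comparison between WT_P30 OHCs and WT_P60 SCs. In OHCs 19 of them were past the fold as higher (48.7%) and 3 as lower (7.69%). Over all genes in that comparison the shares were 15.0% and 20.8%. The 4 highest were Dnm3, a dynamin of endocytosis, at a log2 ratio of 8.41, the SNARE gene Snap25 at 7.75, Rims3 at 6.54 and the liprin gene Ppfia3 at 6.37. The 3 lower were Rab3c at -5.0, the Munc13 gene Unc13b at -3.55 and the endophilin gene Sh3gl2 at -2.14. In OHC-like cells against WT_P60 SCs 19 of 44 were higher (43.2%) and 1 lower (2.27%), beside 17.0% and 12.2% of all genes. The 4 highest there were Rab3b, a vesicle GTPase, at 7.74, Snap25 at 7.35, the neurexin gene Nrxn3 at 7.05 and Syt7 at 5.69, and the lower one was Unc13b at -3.50. Nascent HCs had 17 of 46 higher than WT_P60 SCs (37.0%) and 0 lower, beside 15.9% and 10.7% of all genes. Failing SCs had 7 of 34 higher (20.6%) and 2 lower (5.88%), beside 15.4% and 8.84%. Between OHC-like cells and WT_P30 OHCs 10 of 45 were higher in the OHC-like cells (22.2%) and 7 lower (15.6%), shares near the 22.0% and 11.2% of all genes. The median log2 ratio was 0.04 over the list and 0.55 over all genes. Chosen after their values were seen, Dnm3 had a mean of 551 CPM in WT_P30 OHCs and 6.94 in OHC-like cells, whereas Rab3a had means of 334 and 335 and Snap25 of 214 and 162. OHC-like cells had 16 of 44 higher than failing SCs (36.4%) and 2 lower (4.55%), beside 11.1% and 12.5% of all genes. Nascent HCs had 15 of 48 higher than failing SCs (31.2%) and 3 lower (6.25%), beside 9.08% and 10.3%. OHC-like cells against nascent HCs had 5 of 47 higher (10.6%) and 4 lower (8.51%), beside 4.90% and 5.67%.

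Several of the genes with higher means in OHC-like cells and nascent HCs are known in neurons too, so neuronal markers are given beside them. The summed level of 6 neuronal markers (Tubb3, Nefl, Nefm, Nefh, Prph and Rbfox3) ran from 0 to 430 CPM in OHC-like cells with a median of 0.198, and from 0 to 861 in nascent HCs with a median of 43.6. In WT_P30 OHCs it ran from 0 to 207 with a median of 0.128, in WT_P60 SCs from 0 to 31.7 with a median of 0, and in failing SCs from 0 to 70.7 with a median of 0.141. The 7 WT_P30 OHCs with a sum of at least 1 CPM had Otof from 427 to 1270 CPM. Every other OHC had a sum of at most 0.144 CPM, with Otof at up to 934 CPM, in OHC 13. In OHC-like cells 4 of the 6 were detected and Prph was at 0. In nascent HCs 4 were detected, Nefl was at 0 and Rbfox3 was detected in 6 of 16. OHC-like cell 4, highest in CPM in Bsn, Pclo and Rims2, held no read of any of the 6. Cells 7 and 9, the next highest in Pclo at 186 and 167 CPM, had neuronal sums of 430 and 83.2 CPM. The myelin gene Mbp was detected in 9 of 11 OHC-like cells and 11 of 16 nascent HCs and held no read in WT_P30 OHCs or WT_P60 SCs, and the part of any of these in the results was not tested.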

How the data were processed

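The authors trimmed reads with Trimmomatic 0.39 after FastQC 0.11.9, aligned them with HISAT2 2.1.0 and counted them per gene with HTSeq 0.10.0, per the submitters' notes and methods, which also name StringTie 1.3.5. They deposited raw counts of 55291 genes and the construct row WPRE (0.0254% of counts, left out here) in 75 cells, with no pooling. The 10 members and the lists were chosen with earlier results of these data known. Totals were scaled by TMM in edgeR 4.0.16 (11443 genes), and CPM, group means and log2 ratios with a pseudocount of 1 CPM were computed in Python 3.11.15. The study's DESeq2 test over cells was not repeated, because cells of unnamed animals are not replicates. Named genes were all members, the paralogs, the 4 largest differences of the presynaptic list in each direction against SCs, and the 3 genes most like each member, of which 1 is not reported here. TPM used exon lengths of GENCODE vM21 for 53701 genes. Alternatives covered scaling (DESeq2 1.42.0 size factors among them), averaging, pseudocount, filters, thinning and leaving out cells. No 2 cells had identical counts. Scripts were tested on simulated data.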

Additional observations from a re-analysis of the deposited data

How the results depend on the processing

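No paired analysis was possible because no test was run. The numbers of members past the fold stayed within 1.5 times of the value given for WT_P30 OHCs against WT_P60 SCs, and for OHC-like cells against WT_P60 SCs, WT_P30 OHCs and failing SCs, under every alternative run, single cells left out included. The other 4 comparisons moved, and the cause was not tested. In nascent HCs against WT_P60 SCs the count of 7 became 3 with medians over cells, 3 with means of log2(CPM + 1), 2 with a pseudocount of 10 CPM and 3 on TPM, an alternative added after the data were seen. In failing SCs against WT_P60 SCs the count of 2 became 0 with medians, 0 with means of log2(CPM + 1), 1 with a pseudocount of 10 CPM, 1 with a 10 CPM filter, 4 at a log2 ratio over 1 and 1 on TPM, and 1 to 2 with a single cell left out. In nascent HCs against failing SCs the count of 5 became 3 with medians, 3 with means of log2(CPM + 1), 2 with a pseudocount of 10 CPM, 3 with a 10 CPM filter and 1 on TPM. In OHC-like cells against nascent HCs the count of 2 became 0 with pooled counts, 0 with means of log2(CPM + 1), 1 with a pseudocount of 10 CPM, 5 at a log2 ratio over 1, 1 after thinning, 0 on TPM, 0 without OHC-like cell 4, and 0 to 2 with a single cell left out. Log2 ratios of members past the fold were also recomputed, and called moved at a shift of 1 pooled SD between cells or more. Over all alternatives 326 values stayed, 126 moved and 4 turned sign. Of 45 ratios 25 moved with medians over cells, 24 with a pseudocount of 10 CPM, 22 with 0.1 CPM and 20 on TPM. Means of log2(CPM + 1) moved 18. DESeq2 size factors, library size alone, pooled counts and thinning moved none. The sign turned 4 times, each within a library-number series: Bsn and Pclo at -0.08 each for OHC-like cells in series A, and Cacnb2 at -1.56 in series C and Pclo at -0.69 in series E for nascent HCs, all against failing SCs and with 1 cell in an arm. DESeq2 size factors moved the median log2 ratio of all genes by at most -0.22 and library size alone by at most -0.25, and TPM by at most -0.40. On TPM the share of genes past the fold that were higher was 45.7% in place of 58.3% for OHC-like cells against WT_P60 SCs, and 49.7% in place of 59.8% for nascent HCs. Of 150 counts of cells that detected a member, 3 left their interval, all of single cells of Otof or Slc17a8. Reads of 1 cell are few for a gene near the 1 CPM threshold. A member at 0 in a cell was not detected there and is not shown to be absent.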
